A study of Mus musculus with 8 samples.

Results

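The bile acid synthesis and uptake genes are 10 mouse genes taken as a named list, Cyp7a1, Cyp8b1, Cyp27a1, Cyp7b1, Akr1d1, Slc27a5, Baat, Slc10a1, Fgfr4 and Klb. The rule that defines them uses names and no measured value, although the list was drawn up with earlier results of these data known, and all 10 were found among the 55341 gene symbols of the GENCODE M21 annotation of the mouse genome (GRCm38/mm10), of which 12261 had a transcription start site (TSS) in a region of the data. The regions are stretches of the genome marked by acetylated lysine 27 of histone H3 (H3K27ac), a chromatin mark of active promoters and enhancers, mapped by ChIP-seq in mouse primary hepatocytes (MPH). The cells came from adult male wild-type C57BL/6J mice (C57Bl6 in the labels) and were kept in serum-free William's medium on collagen-coated plates, so the cells were outside the liver and its blood supply. The paper separated hepatocytes from non-parenchymal liver cells by repeated centrifugation and checked the separation with marker genes. No further sort is stated for these cultures, so some other liver cells may remain among them. Treated cells received 1 µM thapsigargin for 4 h, an inhibitor of the SERCA calcium pump that empties the calcium store of the endoplasmic reticulum and thereby causes endoplasmic reticulum stress (ERS), and control cells received 0.04% DMSO, the solvent, for the same 4 h. There were 3 H3K27ac libraries of each group, from 3 independent preparations, and 1 input library of each group.

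The data are 3 lists made from all 8 libraries together, with 5508 regions whose H3K27ac signal was higher after thapsigargin (H3K27ac UP), 3376 whose signal was lower (H3K27ac DOWN) and 23312 that did not pass the study's false discovery rate (H3K27ac unchanged), 32196 in all. A list gives the place and width of each region and no signal, so the depth, the size of a change and its spread between preparations are unknown. All the values given here are therefore class, width and distance, and none carries an error between preparations. An unchanged region is one in which no change passed the threshold, which does not show that its signal stayed equal. A broad region with changes in both directions was left out of all 3 lists by the study, so a TSS in no region may lie in such a region or in none. The cells were measured in bulk, where fewer cells carrying the mark and less mark per cell cannot be told apart.

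Hepatocytes make bile acids from cholesterol. In the classic route CYP7A1 hydroxylates cholesterol at carbon 7, the rate-limiting step, and CYP8B1 adds the hydroxyl group that makes cholic acid. In the alternative route the mitochondrial CYP27A1 oxidises the side chain and CYP7B1 hydroxylates the oxysterol products, while AKR1D1 reduces the double bond of the steroid ring in both routes. SLC27A5 couples the acids to coenzyme A and BAAT joins them to taurine or glycine, SLC10A1 (NTCP) brings conjugated bile acids back from portal blood, and FGFR4 with its coreceptor β-klotho (KLB) is the receptor for the ileal hormone FGF15, which lowers Cyp7a1 transcription.

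The DNA before 4 starts is shown, that of Fgfr4, the coding and internal starts of Akr1d1, and that of Cyp8b1. The DNA comes from GRCm38/mm10, is written 5′ to 3′ on the strand of the gene and ends at the last base before the annotated start. Capitals mark words of the searched transcription factor motifs. The Fgfr4 stretch (chr13:55152451-55152639, plus strand, 189 bases) lies within a DOWN region, from that region's upstream edge to the start. The internal start of Akr1d1 (chr6:37539431-37539680, plus strand, 250 bases) also lies wholly in a DOWN region, and the start of the coding Akr1d1 transcript (chr6:37529923-37530172, plus strand, 250 bases) lies in no region. The Cyp8b1 stretch (chr9:121916306-121916555, minus strand, 250 bases) lies in an unchanged region and was added after its motif matches were seen. Its words therefore give no contrast with the other stretches.
Fgfr4 start: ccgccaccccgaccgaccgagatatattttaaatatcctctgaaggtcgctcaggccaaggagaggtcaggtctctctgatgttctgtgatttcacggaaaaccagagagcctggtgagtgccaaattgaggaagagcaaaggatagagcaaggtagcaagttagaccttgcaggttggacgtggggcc
Akr1d1 internal start: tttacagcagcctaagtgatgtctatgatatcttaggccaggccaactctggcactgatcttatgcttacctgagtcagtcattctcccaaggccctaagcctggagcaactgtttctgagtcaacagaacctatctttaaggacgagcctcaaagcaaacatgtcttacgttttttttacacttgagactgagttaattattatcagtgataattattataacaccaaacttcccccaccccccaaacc
Akr1d1 coding start: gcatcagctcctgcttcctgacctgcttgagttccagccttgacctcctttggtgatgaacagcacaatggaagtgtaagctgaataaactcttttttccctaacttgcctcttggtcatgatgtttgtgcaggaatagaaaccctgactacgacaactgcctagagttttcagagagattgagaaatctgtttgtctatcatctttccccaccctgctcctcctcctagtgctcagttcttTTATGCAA
Cyp8b1 start: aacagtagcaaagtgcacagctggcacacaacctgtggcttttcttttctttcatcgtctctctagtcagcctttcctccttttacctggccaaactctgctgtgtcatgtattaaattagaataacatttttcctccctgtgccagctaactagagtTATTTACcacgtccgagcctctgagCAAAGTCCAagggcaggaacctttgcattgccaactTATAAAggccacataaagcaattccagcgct
Cyp8b1 held the HNF4 word CAAAGTCCA from 67 bases, the FOXA word TATTTAC from 92 bases and the TATA word TATAAA from 31 bases before its start. HNF4 and FOXA proteins are transcription factors of liver cells. The coding start of Akr1d1 held the reverse strand of a C/EBP word directly before the start, beginning 8 bases upstream. Neither of the short stretches inside a DOWN region held any of the words searched. The promoter windows of Cyp27a1 and Klb, with starts in unchanged regions, held none either. The whole DOWN region of Akr1d1 did hold FOXA, C/EBP, ATF4/CHOP and TATA words, and that of Fgfr4 held none. Wide regions often hold such words. Of the 3305 TSS-holding regions at least 2580 bp wide, 69.4% held FOXA, 60.2% C/EBP, 16.3% ATF4/CHOP and 82.9% TATA words. With 2 DOWN regions and stretches of unlike length, these matches cannot show whether the words go with a class.

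Most of these genes had their start in an unchanged region, as did most genes with a TSS in any region. Of the 10 genes, 7 had a TSS in an unchanged region, 2 were at DOWN regions (Akr1d1 and Fgfr4), 0 were at UP regions and 1 (Cyp7a1) lay in no region. Over the 12261 genes with a TSS in any region, 73.7% had a TSS in an unchanged region, 8.91% were at a DOWN region and 21.4% at an UP region. For the 9 bile acid genes with a TSS in a region, the 95% Wilson interval of the DOWN share, 22.2%, ran from 6.32% to 54.7%, and that of the UP share, 0%, reached 29.9%, so both hold the share over all genes. The interval of the unchanged share, 77.8%, ran from 45.3% to 93.7% and held the 73.7% over all genes too. These intervals cover the counting of regions only.

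The regions at the starts were wide. All 9 were wider than 1735 bp, the median of the 10642 regions that hold any TSS, with Fgfr4 at the 69th percentile of width and Baat at the 97.6th. Among all TSS-holding regions at least as wide as the narrowest of these 9 (2580 bp), 19.1% were DOWN, 24.9% UP and 56% unchanged, against 8.72%, 19.2% and 72% of all 10642. The median width was 3828 bp for DOWN, 2136 bp for UP and 1530 bp for unchanged regions with a TSS.

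**Figure D1:**
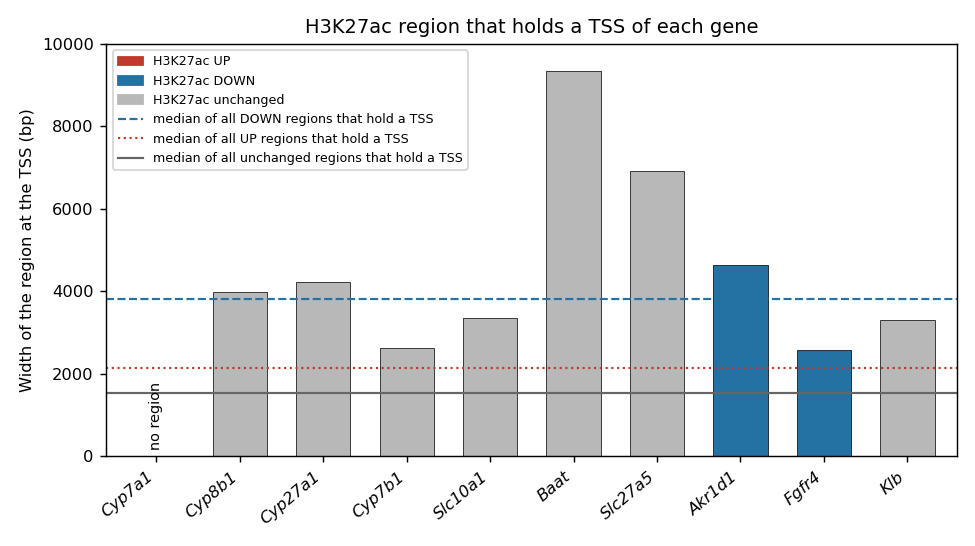
Width in bp of the widest H3K27ac region that holds a TSS of each gene (bars, coloured by class), with lines at the median width of all DOWN, UP and unchanged regions that hold a TSS. Cyp7a1 has no bar because no region holds its TSS, Akr1d1 and Fgfr4 are DOWN, and the unchanged regions of Baat (9349 bp) and Slc27a5 (6915 bp) are the widest of these.

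Cyp7a1 (ENSMUSG00000028240.2, chr4:6265612-6275633, minus strand) had few regions, and the only changed one lay inside the gene. Neither of its annotated starts, 2 in number, lay in a region. Its gene body held a single region, an UP region of 1171 bp (chr4:6269951-6271121) that begins 4.51 kb and ends 5.68 kb downstream of the start and overlaps 1 exon. Among protein-coding genes with a region in the body, 18.3% likewise had no coding TSS in a region (2119 of 11554). The other regions within 50 kb were unchanged, 811 bp wide at 16.9 kb and 498 bp wide at 29.1 kb, both beyond the 3′ end. Together the 3 regions covered 2.48 kb, at the 24.6th percentile of protein-coding genes with a region within 50 kb, and the nearest DOWN region was 2152 kb away.

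Cyp8b1 (ENSMUSG00000050445.4, chr9:121914356-121916305, minus strand), a gene with a single exon, showed a different picture. An unchanged region of 3995 bp (chr9:121912841-121916835) ran over the whole gene, from -0.53 to 3.46 kb relative to the start. Changed regions flanked it on both sides. On the upstream side an UP region of 2375 bp lay 7.05 kb from the start. On the downstream side a DOWN region of 4708 bp lay at 9.96 kb and an UP region of 1329 bp at 25.4 kb. The DOWN region holds a TSS of Ackr2, which encodes a chemokine-scavenging receptor, so the lists cannot assign it to either gene. The remaining 3 regions within 50 kb were unchanged.

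Cyp27a1 (ENSMUSG00000026170.6, chr1:74713574-74737892, plus strand), of the alternative route, had unchanged regions only. Its coding start lay in a region of 4232 bp, and its starts of retained-intron transcripts lay in none. The gene body held a further region of 4557 bp at 4.47 to 9.02 kb and another of 2363 bp at 11.7 to 14.1 kb downstream of the start. All 6 regions within 50 kb were unchanged, the nearest UP region was 125 kb and the nearest DOWN region 373 kb away, although the locus was densely marked, with 16.1 kb covered, at the 86.6th percentile.

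Cyp7b1 (ENSMUSG00000039519.6, chr3:18071950-18243338, minus strand) is a long gene of 171 kb and had UP regions both before its start and deep in its body. Its single TSS lay in an unchanged region of 2624 bp. An UP region of 2150 bp lay 6.55 kb upstream, behind an unchanged region of 1089 bp at 2.38 kb. The body held 5 regions, of which 4 were unchanged and 1, of 4055 bp (chr3:18125632-18129686), was UP. That intronic UP region lies 114 kb from the TSS, outside the 50 kb window, and was the widest region at this gene. The nearest DOWN region was 824 kb away.

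Akr1d1 (ENSMUSG00000038641.12, chr6:37530173-37568815, plus strand) was counted as DOWN through an internal start. The DOWN region, 4640 bp wide (chr6:37537838-37542477), lies 7.67 to 12.3 kb downstream of the coding start overlaps no exon of the coding transcript and holds the start of a processed transcript of the gene and the TSS of the gene model Gm7463. The coding start, shown above, lay in no region. The only other region within 50 kb was unchanged and 272 bp wide, at 48.7 kb, and the nearest UP region was 87 kb away.

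Slc27a5 (ENSMUSG00000030382.15, chr7:12988346-12998192, minus strand), the first of the conjugation genes, lies in a gene-dense stretch. All 4 of its starts lay in an unchanged region of 6915 bp (chr7:12996124-13003038), which also holds a TSS of Trim28, a transcriptional corepressor gene transcribed away from it. Its body held a further unchanged region of 851 bp. Within 50 kb there were 12 regions, the most of the 10 genes, of which 9 hold a TSS of another gene. Of these 12, 11 were unchanged and 1 was UP, 2108 bp wide at 29.1 kb and holding a TSS of the zinc finger gene Zfp324. The nearest DOWN region was 1414 kb away.

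Baat (ENSMUSG00000039653.9, chr4:49489422-49506557, minus strand) had the widest TSS region and the most changed regions. Both of its starts lay in an unchanged region of 9349 bp (chr4:49502366-49511714). On the downstream side a DOWN region of 6027 bp (chr4:49477012-49483038) lay 20.1 kb from the nearer TSS and held no TSS, and a DOWN region of 6191 bp at 48.4 kb held a TSS of Acnat1, a gene of the same acyltransferase family as Baat. On the upstream side an UP region of 3323 bp at 11.9 kb held TSSs of Mrpl50, a mitochondrial ribosomal protein gene, and Zfp189. An UP region of 567 bp lay at 26.3 kb and a DOWN region of 1577 bp at 46.4 kb. The 11 regions covered 41.3 kb, at the 99.3rd percentile of protein-coding genes.

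Slc10a1 (ENSMUSG00000021135.8, chr12:80953183-80968705, minus strand), the uptake transporter, had the most UP regions and no DOWN region in its window. All 4 of its starts lay in an unchanged region of 3359 bp (chr12:80965471-80968829), and a second unchanged region of 1060 bp lay in the body. The UP regions, 4 in number, all lay beyond the 3′ end. They were 2523 bp wide at 20.9 kb, 682 bp at 29.7 kb, 2496 bp at 37 kb and 1204 bp at 40.7 kb from the nearest TSS. The nearest of them holds TSSs of Srsf5, a splicing factor gene, and of Gm20337, and the other 3 hold no TSS. The nearest DOWN region was 145 kb away.

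Fgfr4 (ENSMUSG00000005320.9, chr13:55152640-55168759, plus strand), the receptor, was the only one of the 10 with its coding start in a DOWN region. That region, 2580 bp wide (chr13:55152451-55155030), begins 0.189 kb before the start and ends 2.39 kb inside the gene, so it is almost wholly intragenic. The starts of a processed transcript and of a retained-intron transcript lay just downstream of it in no region. The other regions within 50 kb were unchanged, 2289 bp and 3480 bp wide beyond the 3′ end and 615 bp wide at a TSS of Zfp346. A further DOWN region of 2614 bp lay just outside the window, at 54.8 kb, and the nearest UP region was 205 kb away.

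Klb (ENSMUSG00000029195.10, chr5:65348314-65384007, plus strand), the gene of the coreceptor of FGFR4, had no changed region nearby. All 3 of its starts lay in an unchanged region of 3318 bp, the other 3 regions within 50 kb were unchanged as well, the nearest UP region was 143 kb and the nearest DOWN region 468 kb away. The classes at the starts of receptor and coreceptor therefore differed, although the lists give no test of a difference between them.

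**Figure D2:**
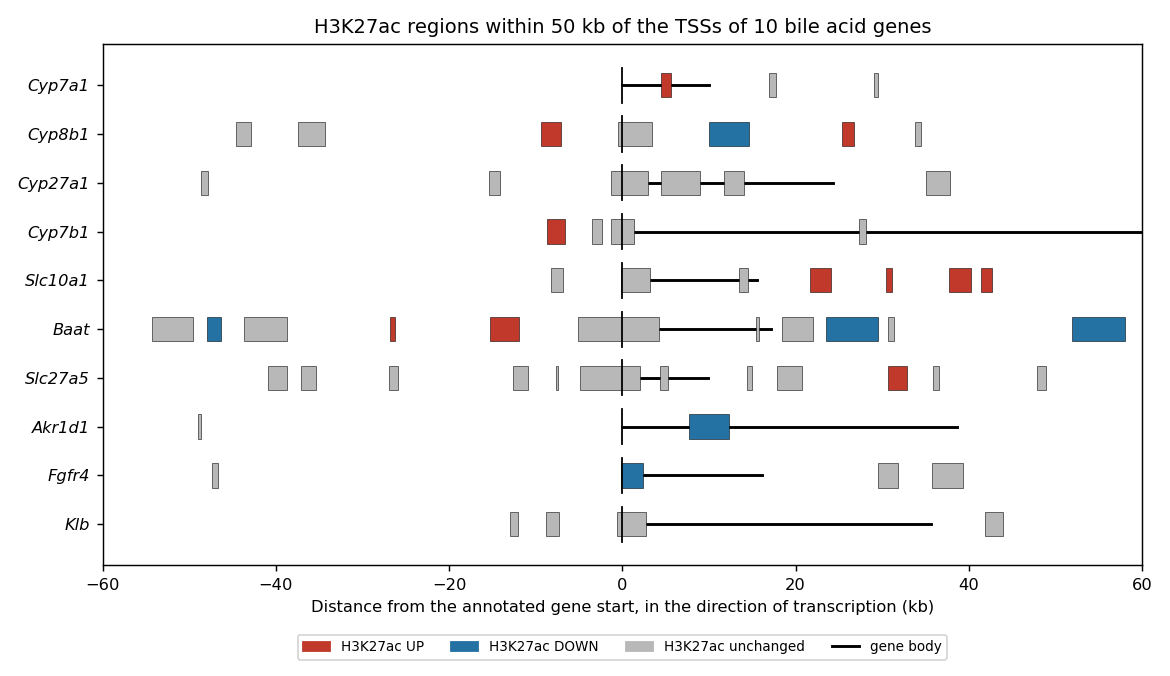
H3K27ac regions within 50 kb of a TSS of each gene (boxes, coloured by class), placed by distance in kb from the annotated gene start in the direction of transcription, with the gene body as a black line. The body of Cyp7b1 runs past the right edge, so its UP region 114 kb from the TSS is not drawn. The starts of Fgfr4 and Akr1d1 (internal) meet blue DOWN boxes, and red UP boxes lie beside the start of Cyp7b1 and Cyp8b1 and beyond the end of Slc10a1.

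Counted over the 10 genes, the classes of nearby regions were close to those of coding genes at large. The genes had 60 regions within 50 kb of a TSS, of which 11 were UP (18.3%, Wilson interval 10.6% to 29.9%), 6 DOWN (10%, 4.66% to 20.1%) and 43 unchanged (71.7%, 59.2% to 81.5%). Of the 27449 regions within 50 kb of a TSS of any protein-coding gene, 17% were UP and 10.1% DOWN. Baat alone had 3 of the 6 DOWN regions, and without its locus, a choice made after seeing the data, the DOWN share was 6.12%. By base pairs, 14.1% of the 141122 bp in these regions was UP and 18.2% DOWN, against 21.3% and 17.7% around all protein-coding TSSs. The genes' bodies held 19 regions, 2 UP (10.5%), 2 DOWN (10.5%) and 15 unchanged, against 17.4% UP and 9.57% DOWN of the regions in all protein-coding gene bodies.

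By distance from the nearest TSS of the gene, there were 0 UP and 2 DOWN among the 9 regions at a TSS. Over all protein-coding genes, 20% of the pairs of a gene and a region at its TSS were UP and 7.83% DOWN. The shares in the other bins are of such pairs too, so a region near several genes counts once for each. There were 3 UP and 1 DOWN among the 11 regions up to 10 kb away, beside 16.1% and 9.08%, and 2 UP and 1 DOWN among the 13 from there to 25 kb, beside 16.7% and 9.63%. The 27 regions from there to 50 kb held 6 UP and 2 DOWN, beside 16.9% and 9.88%. The counts in each bin are too few to set these genes apart from the rest. Of the 11 UP regions, 3 held a TSS of another gene and 8 held none, and their widths ran from 567 to 3323 bp. The 6 DOWN regions were 1577 to 6191 bp wide, and 3 of them held a TSS of another gene.

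By gene, 6 of the 10 had an UP region within 50 kb and 4 had a DOWN region. Of the 9805 protein-coding genes with a TSS in a region, 53.6% had an UP region and 31.3% a DOWN region at that distance. Cyp7a1, among the 6 with an UP region, has no TSS in a region, so it lies outside the set of those protein-coding genes. UP regions without a DOWN region were near Cyp7a1, Cyp7b1, Slc10a1 and Slc27a5, a DOWN region without an UP region was near Akr1d1 and Fgfr4, and both were near Cyp8b1 and Baat. The window of Cyp27a1 and Klb held neither, which was so for 31.5% of those protein-coding genes. The median distance to the nearest UP region over the same genes was 41.4 kb and to the nearest DOWN region 127 kb. The nearest UP region was closer than that median for 6 of the 10 genes, Cyp7a1 again among them, and the nearest DOWN region for the 4 with one in the window.

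**Figure D3:**
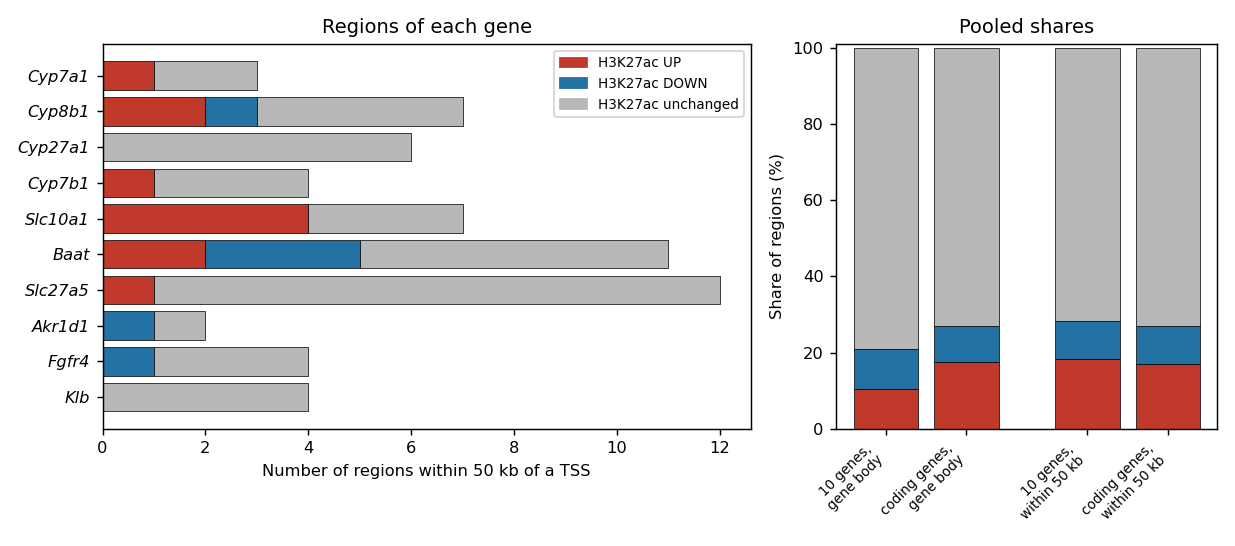
Left, the number of UP, DOWN and unchanged H3K27ac regions within 50 kb of a TSS of each gene. Right, the share in percent of each class over the regions of the 10 genes and over those of all protein-coding genes, in gene bodies and within 50 kb of a TSS; within 50 kb, 18.3% of the genes' regions were UP and 10% DOWN, beside 17% and 10.1%.

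**Figure D4:**
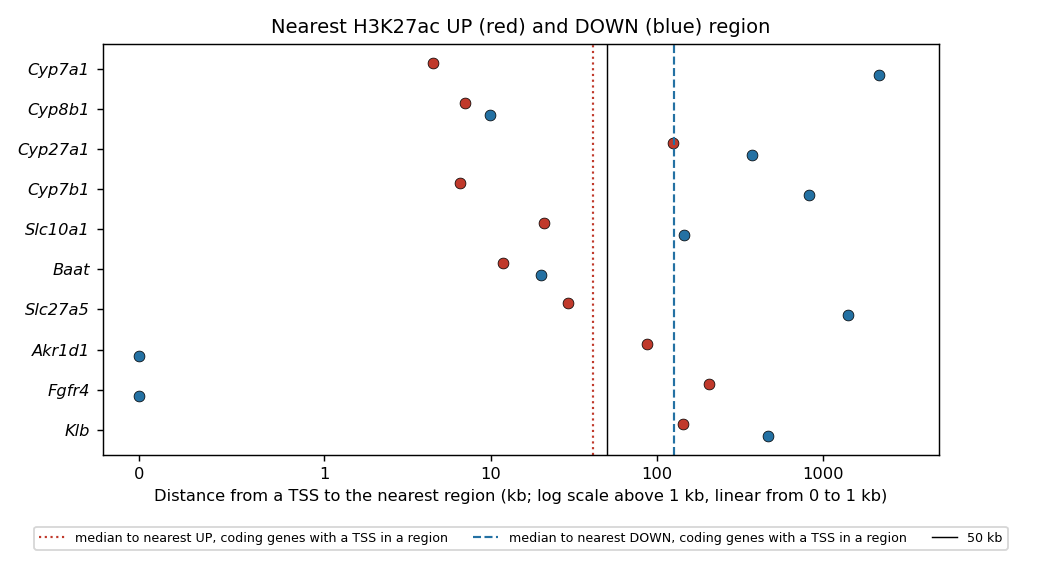
Distance in kb from a TSS of each gene to the nearest UP (red) and nearest DOWN (blue) region, on a log scale above 1 kb, with dashed and dotted lines at the medians over protein-coding genes with a TSS in a region (127 kb for DOWN, 41.4 kb for UP) and a solid line at 50 kb. The DOWN points of Akr1d1 and Fgfr4 are at 0, and those of Cyp7a1 and Slc27a5 lie 1414 kb away or more.

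Other genes of bile acid biology, 32 in number, had starts in changed regions of both kinds. A TSS lay in an UP region for 4 of them, in a DOWN region for 6, in unchanged regions only for 16 and in no region for 6. Read over the 26 with a TSS in a region, these counts stand beside the 21.4% UP and 8.91% DOWN of all such genes. Among the 11 further synthesis genes, Hsd3b7, which acts after CYP7A1 and CYP7B1, had a TSS in an UP region of 2308 bp. Cyp2c70, which makes muricholic acids in the mouse, had a TSS in a DOWN region of 5387 bp. Acox2, which shortens the side chain in peroxisomes, had TSSs in DOWN regions of 4894 bp and 4101 bp.

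Among the 11 transport genes, Abcc2, an export pump of the canalicular membrane, had a TSS in an UP region of 13961 bp and another in an unchanged region, and Abcc4, an export pump of the sinusoidal membrane, had a TSS in an UP region of 624 bp. Abcc3, a further basolateral export pump, had a TSS in a DOWN region of 4014 bp. Among the 10 regulators, Nr1h4, which encodes the bile acid receptor FXR, had TSSs in a DOWN region of 12673 bp and in an unchanged region. Nr5a2 (LRH-1), an activator of Cyp7a1 and Cyp8b1, had TSSs in a DOWN region of 4032 bp and in an unchanged one, and a DOWN region of 13466 bp was the only one at the starts of Hnf4a. Rxra, the heterodimer partner of FXR, had TSSs in an UP region of 6016 bp and in unchanged regions. So of the genes with a TSS in any region, 3 of 7 regulators, 2 of 9 further synthesis genes and 1 of 10 transport genes had one in a DOWN region. Over all such genes the share was 8.91%, and these counts are too small to set the groups apart.

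The listed hepatocyte markers had a TSS in a region more often than those of other cell types. Over all genes, 12261 of 55341 symbols had one. All 5 hepatocyte markers (Alb, Ttr, Apoa1, Apob and Serpina1a) did. So did 0 of 4 markers of Kupffer cells or macrophages, 0 of 4 of stellate cells and 0 of 3 of lymphocytes. The count was 1 of 4 for sinusoidal endothelial cells (Stab2, unchanged) and 1 of 4 for cholangiocytes (Sox9, UP). Markers without a TSS in a region could still have regions within 50 kb, such as Lyve1 and Pecam1. Clec4f, Adgre1, Marco and Csf1r had none there.

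Promoter windows of 300 bases, 250 before and 50 after a RefSeq start on GRCm38/mm10, were at hand for Cyp8b1, Cyp27a1, Akr1d1, Slc10a1 (with 2 starts), Fgfr4 and Klb, and not for Cyp7a1, Cyp7b1, Baat and Slc27a5. GC content ran from 43% at a Slc10a1 start to 65.3% at Fgfr4, against a median of 52.7% over 32851 windows. The CpG observed to expected ratio was 0.0665 at Akr1d1, 0.146 and 0.334 at Slc10a1, 0.305 at Cyp8b1, 0.436 at Cyp27a1, 0.571 at Klb and 0.649 at Fgfr4, against a median of 0.384. The Fgfr4 window is set by a RefSeq start (chr13, 55152818) downstream of the GENCODE start (55152640), and the stretch before the latter printed above had a GC content of 51.9% and a ratio of 0.562.

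The words were searched on both strands with exact letters, and a window could match several. They are CAAAGTCCA (HNF4), CAAGGTCA (NR5A2), TTATGTAA and TTACGTAA (D-box), TTGCNCAA and TTGCNTAA (C/EBP), TGATGNAAT (ATF4/CHOP), TGACGTGG (the unfolded protein response element). The FOXA words were TGTTTAC and its variant beginning with TA in place of TG, and the TATA box was TATAAA. The HNF4 word stood in the window of Cyp8b1 alone, beside 0.475% of all windows. FOXA words also matched in Cyp8b1 alone (6.54% of all windows), the TATA word in Cyp8b1 and Slc10a1 (13.6%) and C/EBP words in Akr1d1 and Slc10a1 (5.3%). In Slc10a1 the C/EBP words began 75 and 4 bases before its second RefSeq start. NR5A2, D-box, ATF4/CHOP and unfolded protein response words matched in 0 of the 6 genes, beside 1.56%, 1.06%, 0.965% and 0.676% of all windows. A match is a string of letters and shows no binding, and a window without one says nothing of the factor.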

How the data were processed

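H3K27ac ChIP-seq of MPH was mapped with Bowtie and broad peaks were called with MACS2 on pooled libraries by the authors, who then counted reads in bins of 150 bp with csaw, removed bins at the level of input, normalised by loess and ran a quasi-likelihood analysis paired by mouse. Bins were combined per peak, and the deposited UP and DOWN regions passed a false discovery rate of 0.05, with UP bins at least 2 times as many as DOWN bins for UP and at most 0.5 times for DOWN. Aligner and caller versions were not given in the sources used here.

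The deposited lists hold coordinates only, on mm10, and were joined to GENCODE M21 TSSs of all transcript types, gene bodies and windows of 50 kb from a region's edge to the nearest TSS (Python 3.11.15, numpy 2.4.6, scipy 1.17.1). A region was at a TSS when it held it. Shares have 95% Wilson intervals. With no value per library, no test between groups could be run. The joins were tested on simulated regions. Alternatives were other windows and TSS distances, coding transcripts, wide regions, midpoints and base pairs.

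All 10 genes are named with all their regions, other genes where a TSS lies in such a region, and pathway genes where a TSS lies in a changed region. Sequence was shown for genes with a TSS in a changed region, and for Cyp8b1. The members and lists were chosen with earlier results of these data known.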

Additional observations from a re-analysis of the deposited data

How the results depend on the processing

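Of 56 values recomputed under other settings, 47 kept to the reported value within its counting interval or a factor of 1.5. These intervals are wide, so staying inside them says little. A DOWN share of 18.2% within 50 kb counted as kept beside the reported 10%. With a TSS counted within 10 kb of a region, 3 genes had one near an UP region in place of 0 (Cyp7a1, Cyp8b1 and Cyp7b1). At that setting 3 genes were also near a DOWN region in place of 2, with Cyp8b1 added. A wider reach can only keep or raise such counts. With protein-coding transcripts only, 1 gene (Fgfr4) in place of 2 was at a DOWN region, because the coding start of Akr1d1 lies in no region. Where a region had to reach 500 bp past the TSS in both directions, 1 (Akr1d1) was, because the region of Fgfr4 begins 189 bp before its start. No share over all genes stands beside the counts at these settings. Within 50 kb the UP share ran from 14.1% (by base pairs) to 20.5% (regions of at least 1 kb), and the DOWN share from 6.12% (without the Baat locus, chosen after seeing the data) to 18.2% (by base pairs). Searching the whole regions at the TSSs in place of the promoter windows gave matches in 1 of the 6 genes searched for NR5A2, 4 for FOXA, 1 for the D-box, 4 for C/EBP, 3 for ATF4/CHOP and 4 for TATA. Of all 3305 regions with a TSS and at least as wide as the narrowest of these, 30.8%, 69.4%, 18.3%, 60.2%, 16.3% and 82.9% hold them, so wide regions often match. No paired analysis was possible because the lists hold no value per library, and leaving out single replicates was not run for the same reason. Depth is unknown, so it cannot be said what change an unchanged region could hide.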
